A study of Drosophila melanogaster with 6 samples.

Results

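Transcripts of the core genes of the Notch pathway were examined in Drosophila S2 cells with and without depletion of ROW. The set names 10 genes: the receptor N, its ligands Dl and Ser, and the nuclear factors Su(H), H and mam, together with numb, kuz, fng and neur. Its members are the probe sets whose platform annotation gives 1 of these symbols alone, or another symbol of the same gene. The annotation names Dl as Delta, and the 2 were matched by gene ID. Of the 10 genes, 7 were measured, by 10 probe sets among 18769 tested. The other 3, N, Ser and Su(H), are not analysed here, as no probe set came under the rule.

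Notch is a receptor that signals between touching cells. A ligand on one cell, Delta or Serrate, opens the receptor on its neighbour to cleavage, first by the ADAM protease Kuzbanian and then by gamma-secretase. The freed intracellular domain joins the DNA-binding protein Su(H) and the coactivator Mastermind, and genes of the Enhancer of split complex are switched on. Without it, Su(H) is bound by Hairless, which recruits the corepressors Groucho and CtBP. Numb, an endocytic adaptor that goes to 1 of the daughters of an asymmetric division, holds Notch signalling down in that cell. In fly blood, Notch is known for its part in the fate of crystal cells.

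The study measured total RNA on 6 Affymetrix Drosophila Genome 2.0 arrays, 3 labelled control and 3 labelled ROW RNAi, and asks which transcripts differ once ROW, a zinc finger protein of HP1c chromatin complexes, is depleted. Control cells are described as wild type S2, an embryo-derived cultured line with traits of fly blood cells (hemocytes). For ROW RNAi, S2 cells were kept for 96 h with double-stranded RNA that targets ROW. The same soaking note is attached to every sample, so the labels do not tell what the control cells were soaked in, and the effects of ROW loss and of exposure to double-stranded RNA as such cannot be told apart. S2 is 1 cell line, and nothing says that the arrays came from separate cultures. The spread behind the p-values is therefore that of these 6 arrays and may be technical.

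The 6 arrays had medians from 4.88 to 5.04 (log2), and the lowest and highest pairwise correlations over all probe sets were 0.987 and 0.998. The row transcript itself stood at 33.5%, 16.4% and 15.9% of the control level on its 3 probe sets (limma adjusted p = 0.0023, 0.0018 and 0.0017). All 12 hemocyte markers, among them Hml and srp, lay above the background level of 3.39, set by tag control probe sets. So did the 4 measured neuron markers and the 5 germline markers, so passing this level does not single out hemocytes. Of the 12 hemocyte markers, Sr-CI rose and He fell, and of 4 lamellocyte markers atilla and ItgaPS4 rose. Mean levels of the 4 lamellocyte markers were 9.17 to 9.21 on control arrays and 9.70 to 9.79 on ROW RNAi arrays. This mean was carried by atilla (1.58) and ItgaPS4 (0.46). The log2 fold changes of mys and msn were 0.12 (adjusted p = 0.41) and −0.01 (0.97). The part of these markers in the results on Notch genes was not tested. Arrays also differed along a gradient, the first principal component of the 4720 probe sets without a gene name. Its loadings were 0.70, −0.39 and 0.35 for ROW RNAi replicates 1, 2 and 3, and −0.04, −0.44 and −0.19 for control replicates 1, 2 and 3. As ROW RNAi replicates 1 and 3 had the highest loadings, the gradient as a covariate can also take up a group difference. An effect of ROW RNAi and the gradient cannot be fully told apart in these arrays.

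Of the 7 measured genes, numb was the 1 that passed limma's test: its transcript fell to 61.7% of the control level in ROW RNAi cells. Leaving out any of 5 of the 6 arrays ended this call, with 0.341% or less of all probe sets passing. The fng transcript averaged 68.4% of control in ROW RNAi cells, without passing the test. The remaining members, Dl, neur, kuz, H and mam, did not pass the test either. Of all probe sets tested, 1.16% passed limma's test at an adjusted p of 0.05, and 0.757% passed and were lower. Among the 10 member probe sets, 1 passed. As numb was put in the set with its earlier result known, this count supports nothing about the pathway. The median log2 fold change of the 7 genes was 0.04 on their brightest probe sets, beside −0.03 over all tested probe sets.

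**Figure D1:**
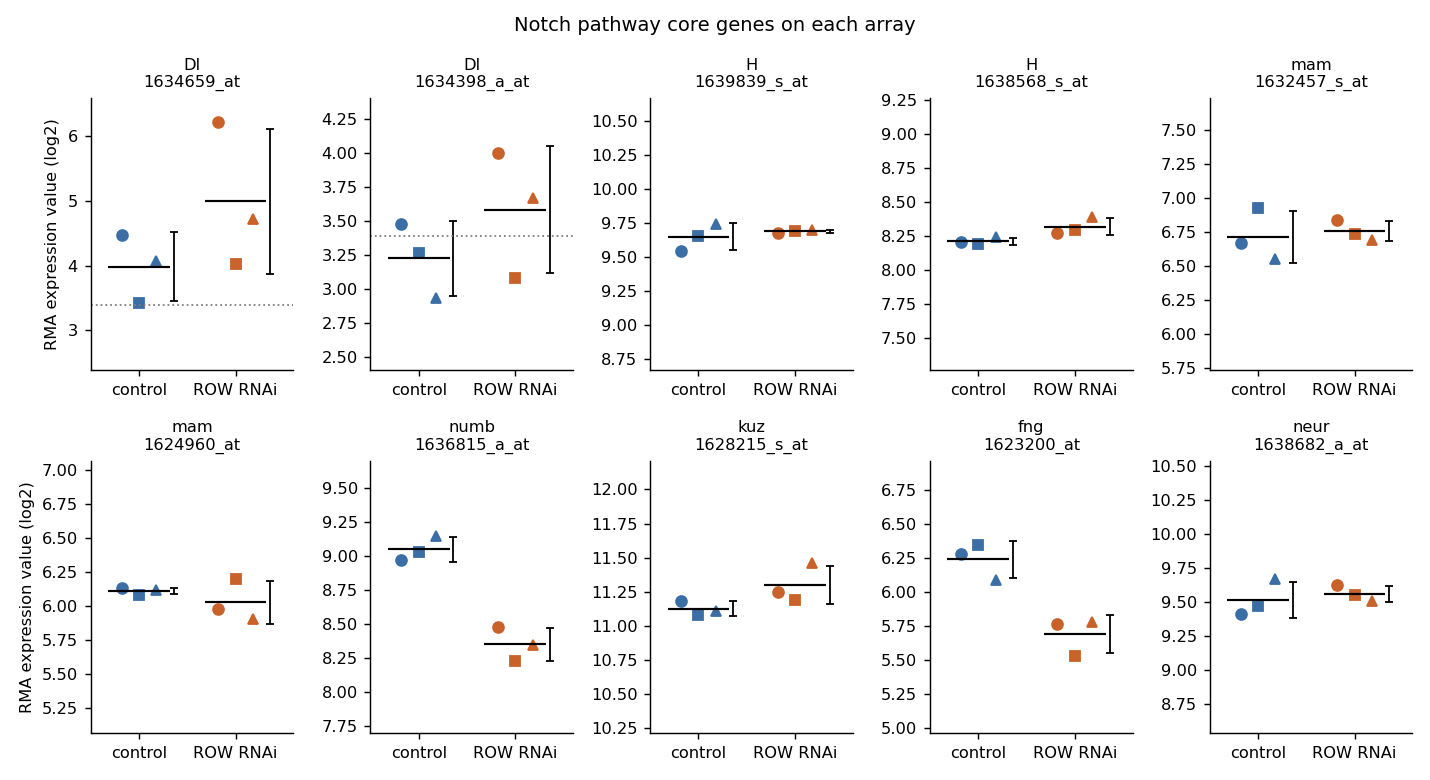
RMA expression values (log2, a separate scale in each panel) of the 10 member probe sets on 3 control arrays (blue) and 3 ROW RNAi arrays (orange). Circles, squares and triangles are replicates 1, 2 and 3, the horizontal bar is the group mean, the whisker its SD, and the dotted line the background level of 3.39 where it lies in the panel. The groups stand clearly apart for numb and fng, by gaps of 0.49 and 0.31, and they overlap or nearly touch in the other panels.

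Of the ligands, Dl was measured. It encodes Delta, the membrane-bound ligand that neighbouring cells present to Notch. Its brighter probe set, 1634659_at, read 4.47, 3.42 and 4.06 in control replicates 1, 2 and 3 and 6.22, 4.03 and 4.72 in ROW RNAi replicates 1, 2 and 3. The groups overlapped, with ROW RNAi replicate 1 far above the other 5 arrays and ROW RNAi replicate 2 below 2 of the controls. The difference was 1.01 on the log2 scale (SE 0.60, 95% interval −0.47 to 2.49, limma adjusted p = 0.50). The interval is wide: with this spread, a change under 4.11 would not have been called.

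The other Dl probe set, 1634398_a_at, lay near background, at 3.48, 3.27 and 2.93 on control arrays and 4.002, 3.08 and 3.67 on ROW RNAi arrays. Its difference was 0.36 (SE 0.26, adjusted p = 0.57). The changes of the 2 probe sets differed by 0.65, within the spread of the arrays (exact permutation test, two-sided, p = 0.50, where 0.1 is the smallest p that 3 against 3 allows). On the brighter Dl probe set the 6 arrays stood in the same order as on the gradient. Its difference was 0.15 with the gradient as a covariate (SE 0.28, adjusted p = 0.90), a fit that cannot tell the gradient from a group difference along it. Without the covariate, leaving out ROW RNAi replicate 1, the highest array, gave 0.39 (adjusted p = 0.77), and leaving out ROW RNAi replicate 2 gave 1.49 (adjusted p = 0.17).

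**Figure D2:**
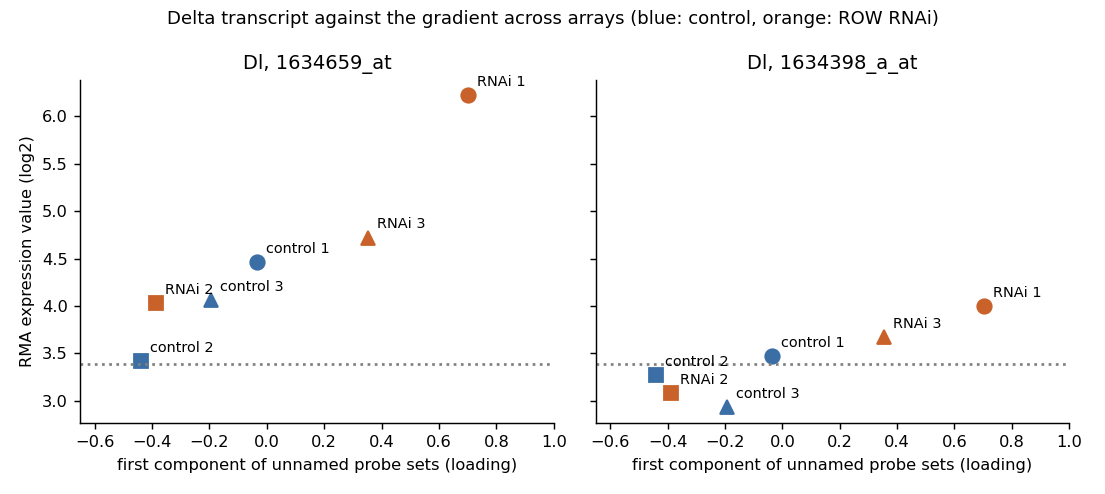
RMA expression values (log2) of the 2 Dl probe sets against the gradient loading of each array, from the probe sets without a gene name. Each point is 1 array, the dotted line is the background level of 3.39, and on the left panel the 6 arrays rise in one order along both axes, from 3.42 on control replicate 2 to 6.22 on ROW RNAi replicate 1.

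The gene neur encodes Neuralized, a ubiquitin ligase that marks Delta for the endocytosis its signalling needs. It read 9.41, 9.47 and 9.66 on control arrays and 9.62, 9.55 and 9.51 on ROW RNAi arrays. The ROW RNAi values fell inside the range of the controls. The difference was 0.05 (SE 0.08, 95% interval −0.16 to 0.25, adjusted p = 0.82), and its sign turned with median centring and without control replicate 1.

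On the receptor side, fng encodes Fringe, a glycosyltransferase that extends the O-linked fucose on Notch, raising its response to Delta and lowering that to Serrate. It read 6.28, 6.35 and 6.09 in control replicates 1, 2 and 3 and 5.77, 5.53 and 5.78 in ROW RNAi replicates 1, 2 and 3. All 3 ROW RNAi arrays lay below all controls, by 0.31 between the nearest arrays. The difference was −0.55 (SE 0.10, 95% interval −0.80 to −0.30), and it did not pass over all probe sets (unadjusted p = 0.0019, limma adjusted p = 0.10). A change of at least 0.70 would have been needed at this spread. The call depended on the processing: fng passed with a further quantile normalization (−0.57, adjusted p = 0.047) and when only probe sets above the median mean were tested (−0.55, adjusted p = 0.032). These settings called 1.13% and 6.13% of the probe sets tested, against 1.16% as reported. The direction of fng was the same under all 16 alternatives, between −0.63 and −0.47, and adjusted p ranged from 0.032 to 0.33. As its groups did not overlap, leaving out 1 array could not turn this direction, and filters or variance models do not alter the difference.

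The gene kuz encodes Kuzbanian, the protease of the first ligand-induced cut in Notch. It read 11.18, 11.08 and 11.11 on control arrays and 11.25, 11.19 and 11.46 on ROW RNAi arrays. The groups did not overlap, but the nearest arrays, control replicate 1 and ROW RNAi replicate 2, were only 0.0083 apart. The difference was 0.18 (SE 0.08, 95% interval −0.03 to 0.38, adjusted p = 0.42), and 0.097 without ROW RNAi replicate 3 (adjusted p = 0.63).

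The inhibitor numb gave the clearest separation. Its 1 probe set, 1636815_a_at, read 8.97, 9.03 and 9.15 in control replicates 1, 2 and 3 and 8.48, 8.23 and 8.35 in ROW RNAi replicates 1, 2 and 3. All ROW RNAi arrays lay below all controls, and the gap of 0.49 was wider than the range within either group, 0.18 in control and 0.24 in ROW RNAi. The transcript fell by 0.70 on the log2 scale, from 9.05 ± 0.09 to 8.35 ± 0.12 (mean ± SD, n = 3 arrays each; log2 fold change −0.70, SE 0.08, 95% interval −0.91 to −0.49, limma adjusted p = 0.031). By size it ranked 66 among the 142 probe sets that passed and were lower.

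The fall of numb held its direction under all 16 alternatives, between −0.78 and −0.64. Much of this was fixed in advance. The filter, variance models, replicate block and averaging of probe sets leave its −0.70 unchanged. Leaving out 1 array cannot turn the sign where the groups do not overlap. The call of numb did not always hold. Leaving out control replicate 1, 2 or 3 ended it (adjusted p = 0.12, 0.17 and 0.15), as did leaving out ROW RNAi replicate 1 or 3 (0.064 and 0.15). It was kept without ROW RNAi replicate 2 (−0.64, adjusted p = 0.039) and with the gradient as a covariate (−0.78, adjusted p = 0.041). An unmoderated test gave an adjusted p of 0.086, and the replicate number as a block 0.13. As 1 probe set measured numb, its isoforms cannot be told apart, and no second probe set of the gene checks the value.

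**Figure D3:**
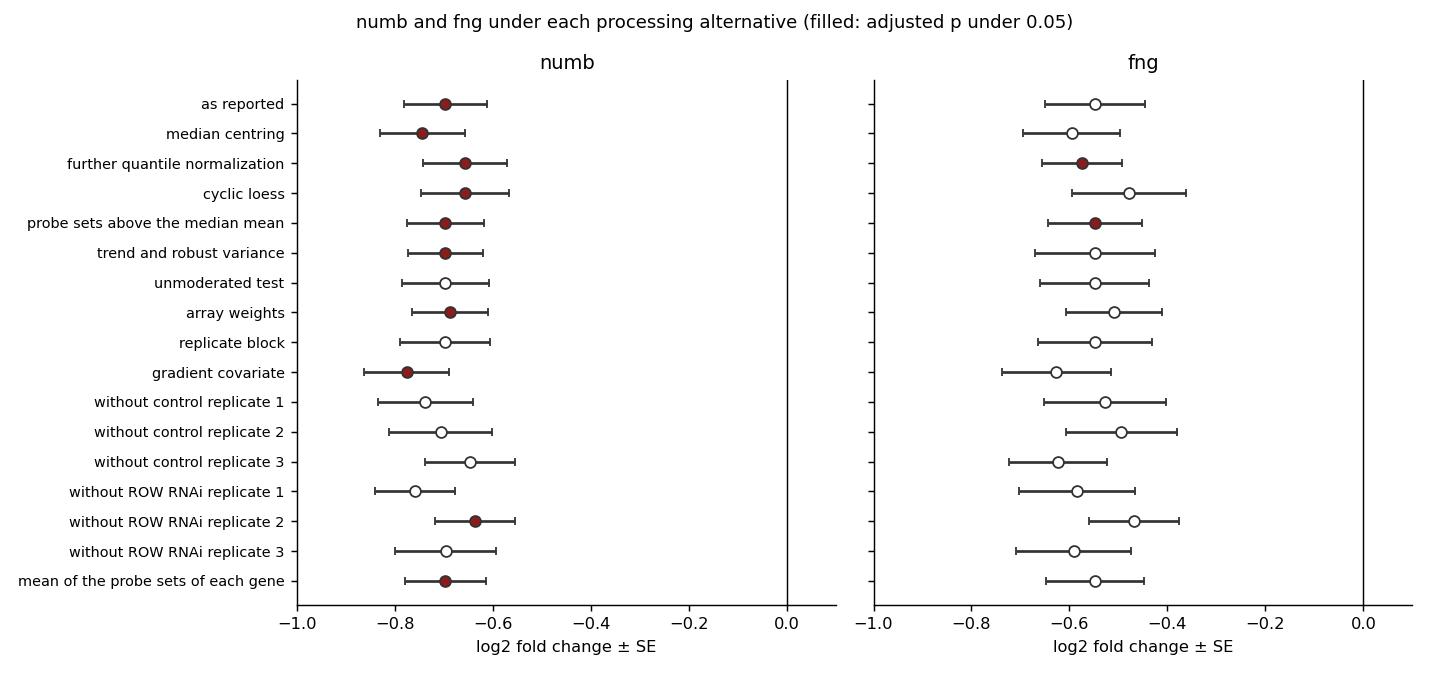
Log2 fold change of numb (left) and fng (right), ROW RNAi minus control, as reported and under each of 16 alternatives named on the vertical axis. Whiskers are the SE and filled points have an adjusted p under 0.05. Every numb value lies between −0.78 and −0.64 and every fng value between −0.63 and −0.47, while the fill comes and goes.

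In Affymetrix naming, _s marks a probe set that can match transcripts of several genes, as for kuz, H and the brighter set of mam, and _a a set shared by transcripts of 1 gene. In the nucleus, H encodes Hairless, the adaptor that turns Su(H) into a repressor. Its brighter probe set, 1639839_s_at, read 9.54, 9.65 and 9.74 on control arrays and 9.67, 9.69 and 9.70 on ROW RNAi arrays. The ROW RNAi values lay within the control range. The difference was 0.04 (SE 0.06, 95% interval −0.12 to 0.20, adjusted p = 0.78), with a sign that turned with median centring and without control replicate 1. On 1638568_s_at, H read 8.20, 8.19 and 8.24 on control arrays and 8.27, 8.30 and 8.39 on ROW RNAi arrays. Here the ROW RNAi arrays were all higher, by 0.03 at the nearest, and the difference of 0.11 did not pass (SE 0.05, 95% interval −0.02 to 0.24, adjusted p = 0.43).

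Mastermind, the coactivator of the Notch and Su(H) complex, is encoded by mam. Its brighter probe set, 1632457_s_at, read 6.67, 6.93 and 6.55 on control arrays and 6.84, 6.74 and 6.69 on ROW RNAi arrays. On 1624960_at it read 6.13, 6.09 and 6.12 on control arrays and 5.98, 6.20 and 5.91 on ROW RNAi arrays. The groups overlapped on both. The differences were 0.04 (SE 0.11, 95% interval −0.23 to 0.30, adjusted p = 0.89) and −0.08 (SE 0.09, 95% interval −0.30 to 0.13, adjusted p = 0.68). The first turned sign with median centring, without control replicate 3, without ROW RNAi replicate 1 and with the mean of both probe sets, and the second with the gradient covariate.

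**Figure D4:**
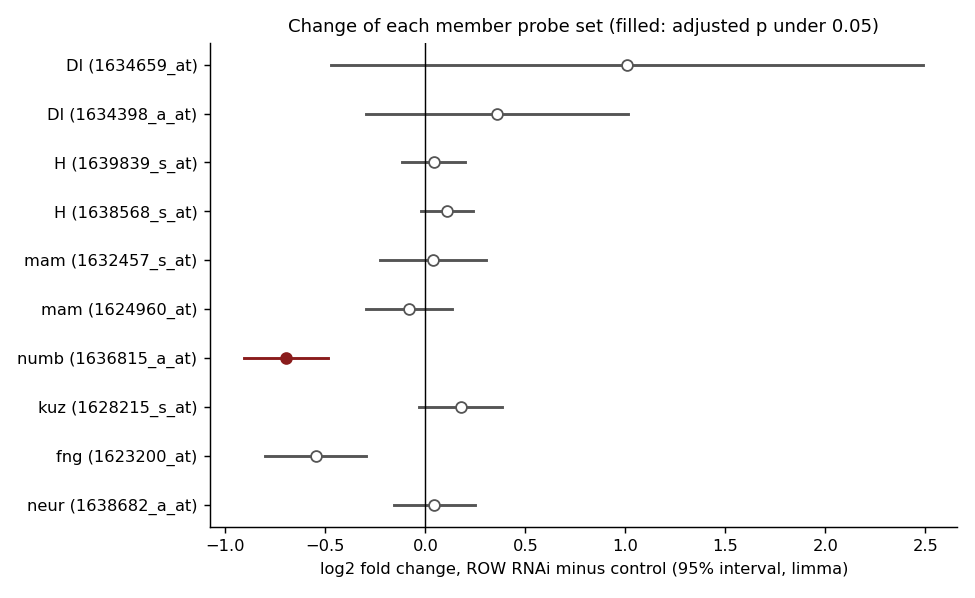
Log2 fold change (ROW RNAi minus control) of the 10 member probe sets with limma's 95% intervals, 3 arrays in each group. The filled point, numb at −0.70, has an adjusted p under 0.05. The fng interval, −0.80 to −0.30, also lies below 0, the Dl intervals are the widest, and those of neur, kuz, H and mam lie within 0.4 of 0.

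Across the members, 4 of the 10 probe sets had groups that did not overlap: numb and fng lower, kuz and 1 probe set of H higher. Of all probe sets tested, 21.4% did not overlap, 14.4% lower and 7% higher. The change of numb was set against that of each of the 6 other genes, array by array, on their brightest probe sets. The level of numb relative to Dl, neur, kuz, H and mam was lower on every ROW RNAi array than on every control, with differences of −1.71, −0.74, −0.87, −0.74 and −0.74. Each reached an exact permutation p of 0.1, the smallest that 3 against 3 allows (adjusted p = 0.12 over 6 comparisons), so the design could not pass 0.05. As numb was chosen with its fall known and its own groups stood apart, these differences mostly restate that fall and add no support. That for Dl includes the uncalled difference of Dl itself, 1.01 (SE 0.60). Relative to fng, numb differed by −0.15, within the spread of the arrays (exact permutation p = 0.60).

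The wider pathway was read from 10 lists of 74 genes, of which 64 were measured. Counts, medians and the order of genes in a list are those of each gene's brightest probe set. None passed limma's test, against 1.16% of all probe sets. At an unadjusted p under 0.05 there were 6, or 9.38%, beside 13.8% of all probe sets. Their median log2 fold change was 0.02, beside −0.03 over all tested probe sets. Of the 64, 41 were above 0 and 23 below, but the share above 0 among all probe sets was not counted. Groups did not overlap for 25%, beside 21.4% of all probe sets.

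Among 12 Numb partners and cell polarity genes, insc came nearest to the threshold. Inscuteable links the Par complex to Pins in dividing neuroblasts, the neural stem cells of the fly, in which Numb is placed on the opposite side. It read 8.48, 8.39 and 8.51 on control arrays and 8.99, 8.81 and 9.004 on ROW RNAi arrays, with all ROW RNAi arrays higher. The difference was 0.47 (SE 0.07, unadjusted p = 0.00080, limma adjusted p = 0.060). It passed without ROW RNAi replicate 2 (0.53, adjusted p = 0.035), with array weights (0.50, 0.030), with trend and robust variance (0.47, 0.0058) and among probe sets above the median mean (0.47, 0.017). These settings called more of all the probe sets tested: 2.75%, 1.43%, 2.97% and 6.13%, against 1.16% as reported. Under the 11 other alternatives insc did not pass. It stood at 0.39 with the gradient covariate (adjusted p = 0.11), 0.42 with median centring (0.10) and 0.43 without control replicate 2 (0.26).

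The other partners differed less. Partner of numb (pon), an adaptor that helps to localize Numb, stood at −0.08 (SE 0.05), the Numb-associated kinase gene Nak at −0.0037 (SE 0.08) and AP-2alpha, a subunit of the clathrin adaptor that binds Numb, at −0.06 (SE 0.06). The brightest gene of this list, par-6, which encodes a polarity scaffold, stood at 0.03 (SE 0.05). The median of the list was 0.03.

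In receptor maturation (3 genes measured, median −0.07), the largest difference was that of O-fut1, which puts the fucose on Notch that Fringe extends (−0.12, SE 0.06, adjusted p = 0.43). It was also the brightest gene of the list, at 11.4 in control. In receptor cleavage (4 measured, median −0.05), Kul, a relative of kuz, read 4.28, 4.30 and 4.27 on control arrays and 3.90, 4.12 and 3.74 on ROW RNAi arrays. Its difference was −0.37 (SE 0.10, adjusted p = 0.22), and it passed without ROW RNAi replicate 2 (−0.47, adjusted p = 0.046), as did 2.75% of all probe sets. Under the 13 other alternatives Kul did not pass, with −0.27 under the gradient covariate (adjusted p = 0.40). Psn, the catalytic presenilin of gamma-secretase, stood at 0.10 (SE 0.05, adjusted p = 0.43).

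Genes of ligand endocytosis (5 measured) had a median of −0.02. On the brightest probe sets, lqf, which encodes epsin, differed most, by 0.09 (SE 0.05, adjusted p = 0.48). A dimmer probe set of shi, the dynamin gene, stood at 0.097 (SE 0.05, adjusted p = 0.46), and the clathrin heavy chain gene Chc stood at −0.03 (SE 0.05). Genes of receptor trafficking (10 measured) had a median of 0.04. Of these, 9 were above 0, some by far less than their SE, such as Hrs (0.0029, SE 0.06) and bib (0.0060, SE 0.07). Median centring lowers every difference by the same amount, and with it Nedd4 stood at 0.09 (adjusted p = 0.65). The ubiquitin ligase genes Su(dx) and Nedd4 stood at 0.15 (SE 0.07) and 0.14 (SE 0.05), with adjusted p-values of 0.39 and 0.34, and shrb, an ESCRT subunit gene, at 0.02 (SE 0.04). Among 8 nuclear cofactors (median 0.01), CtBP stood at 0.12 (SE 0.06, adjusted p = 0.40), gro at −0.03 (SE 0.05) and nej, the CBP acetyltransferase gene, at 0.04 (SE 0.08).

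Output genes of the pathway did not pass the test. Whether they report Notch activity in these cells was not tested, and N, Ser and Su(H) were not analysed. Of the 5 measured bHLH repressor genes of the Enhancer of split complex (median 0.00078), E(spl)mbeta-HLH was the brightest. It read 10.58, 10.58 and 10.50 on control arrays and 10.52, 10.52 and 10.60 on ROW RNAi arrays, a difference of −0.01 (SE 0.05, 95% interval −0.13 to 0.12). E(spl)m3-HLH stood at 0.00078 (SE 0.06, 95% interval −0.14 to 0.14). E(spl)m7-HLH, nearer to background, read 4.14, 4.48 and 3.93 on control arrays and 3.71, 3.84 and 3.74 on ROW RNAi arrays, all lower (−0.41, SE 0.14, adjusted p = 0.31). Without control replicate 2 the difference was −0.27 (adjusted p = 0.52).

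Bearded family genes encode small proteins that inhibit Neuralized. Of 8 measured, BobA read 2.79, 2.58 and 2.74 on control arrays and 3.74, 3.04 and 3.58 on ROW RNAi arrays, with every control below the background level of 3.39. Its difference was 0.75 (SE 0.19, adjusted p = 0.18). It passed without ROW RNAi replicate 2, at 0.96 (adjusted p = 0.025), as did 2.75% of all probe sets. With the gradient as a covariate BobA stood at 0.47 (adjusted p = 0.064). Like Dl, BobA was highest on the arrays with the highest gradient loadings, ROW RNAi replicates 1 and 3. The brightest gene of the family, E(spl)malpha-BFM, stood at −0.27 (SE 0.20, adjusted p = 0.57).

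Of 6 other known Notch targets (median 0.13), Hey, which encodes a bHLH repressor, differed most on the brightest probe sets, by 0.28 (SE 0.09, adjusted p = 0.26), from a control mean of 3.36, just under the background level. The brightest, ct, a homeodomain gene, stood at 0.16 (SE 0.07, adjusted p = 0.39), and its next probe set also at 0.16 (SE 0.09). Its dim probe set 1638337_at read 3.73, 3.17 and 4.04 on control arrays and 5.38, 4.36 and 4.92 on ROW RNAi arrays, all higher. That difference was 1.24 (SE 0.33, unadjusted p = 0.0098, adjusted p = 0.20), 1.51 without ROW RNAi replicate 2 (adjusted p = 0.067) and 0.80 with the gradient covariate (adjusted p = 0.23). Whether the 3 probe sets of ct changed by unlike amounts was not tested. On their brightest probe sets, klu and vg stood at 0.11 (SE 0.11) and 0.14 (SE 0.13). Dim probe sets of the same genes stood at 0.37 (SE 0.23) and 0.32 (SE 0.24). The dim set of klu lay below background in both groups, and that of vg stood at −0.04 with the gradient covariate. Of 4 crystal cell genes, PPO2, a prophenoloxidase gene, stood at −0.29 (SE 0.13, adjusted p = 0.39), and lz, the RUNX factor of this lineage, at 0.13 (SE 0.20). The median of these 4 was 0.03, and peb, the brightest, stood at 0.04 (SE 0.15).

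**Figure D5:**
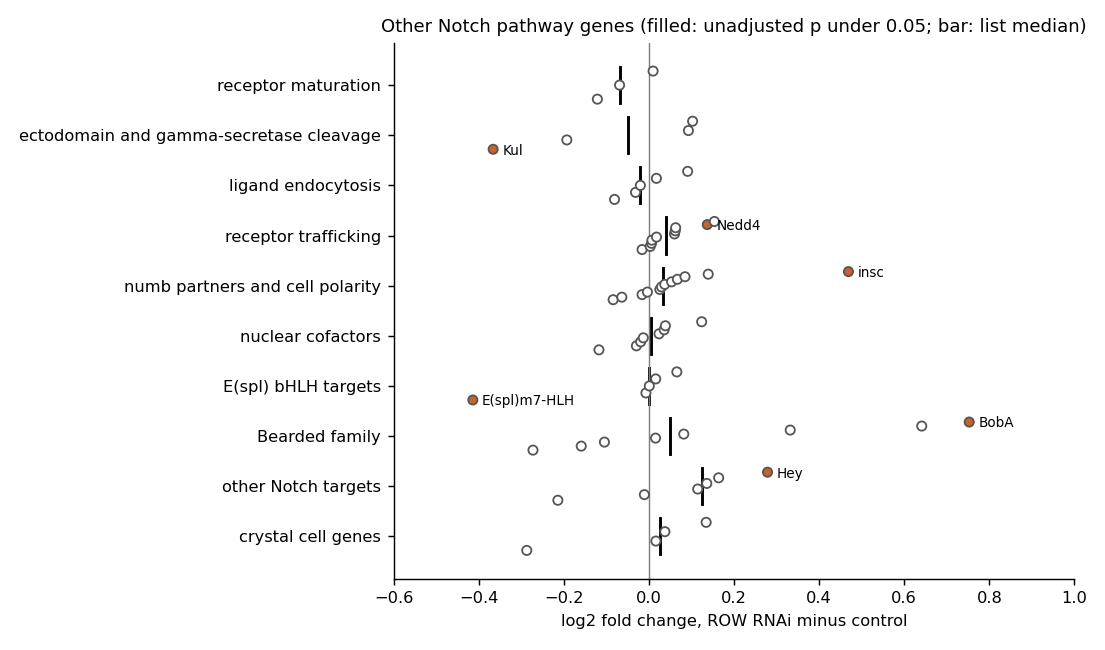
Log2 fold change (ROW RNAi minus control) of the 64 other Notch pathway genes measured, 1 point a gene on its brightest probe set, by list. Genes at an unadjusted p under 0.05 are filled and named, none had an adjusted p under 0.05, and vertical bars are list medians, which run from −0.07 to 0.13.

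By the arms given in RefSeq's gene table for Release 6 plus ISO1 MT, numb and kuz lie on 2L, mam on 2R, fng on 3L, and Dl, H and neur on 3R. The nearest measured gene on each side of every member was looked at, a choice made by position after the members' values were seen. None of these 14 neighbours passed the test, beside 1.16% of all probe sets, and 2 had an unadjusted p under 0.05, beside 13.8%. Counts this near the shares of all probe sets say nothing particular about the neighbours. The log2 fold changes of the 14 ran from −0.34 to 0.22. Beside numb, Gdi, which encodes a regulator of Rab GTPases, stood at 0.01 (SE 0.04), and RpS28-like at 0.13 (SE 0.27). Beside fng, CG11458 stood at −0.24 (SE 0.23) and CG10589 at −0.27 (SE 0.10), both below background in the 2 groups.

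Across the 6 arrays the profile of numb was set against those of 1031 genes whose mean lay above the median and whose SD was at least 0.2. The points share the group difference, so likeness mostly reflects it. The highest Pearson correlations were those of nolo (r = 0.999), Hrb98DE, which encodes an RNA-binding hnRNP protein (0.994), Zip102B, a zinc transporter gene (0.994), CG40198 (0.993) and CG44085 (0.993). Their log2 fold changes were −0.60, −0.43, −0.49, −0.50 and −0.54. The lowest were those of CG9360 (r = −0.991), axed (−0.990), CG9184 (−0.988), CG4250 (−0.988) and cuff (−0.986), with log2 fold changes of 0.40, 0.64, 0.61, 0.59 and 0.44.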

How the data were processed

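Total RNA (25 ng a sample) was amplified isothermally and hybridized to Drosophila Genome 2.0 arrays, per the labels' protocols. The authors' deposited values are log2 RMA values, as the submitters' processing notes name this method. The RMA version and the build behind the array annotation are not given in the sources used here, and coordinates were left out. RMA evens out the arrays' distributions and can hide a change common to most transcripts.

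After 183 control probe sets were left out, 18769 were tested, with no filter on dim ones. Of these, 13647 had 1 gene symbol, 402 several and 4720 none. Symbols were updated by gene ID (13544 matched). Background was the 95th percentile of 17 tag control probe sets. Groups were compared with limma 3.58.1 (lmFit, eBayes, two-sided) in R 4.3.3, with Benjamini-Hochberg adjustment over all tested probe sets and a threshold of 0.05. SE is limma's moderated one. The fit was also run on simulated data with independent normal noise. These had no gradient and no pairing of arrays, so that run does not bear on such features here.

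The members, lists and tests were chosen with earlier results of these data known. Named genes were all members, row, each list's genes past the threshold, its largest change and its brightest gene, and the 5 genes most and least like numb. Other genes were named after their values were seen. Same-numbered arrays deviated together with correlations of 0.48, 0.55 and −0.04 for replicates 1, 2 and 3. On the gradient, replicate 1 was highest and replicate 2 lowest in both groups. Without such correlations for unlike-numbered arrays, these values cannot decide whether equal numbers mark paired samples. The comparison as reported treated the arrays as unpaired, and pairing was not excluded. Alternatives were other scalings, filters, variance models, array weights, a replicate block, a gradient covariate, averaging each gene's probe sets and leaving out each array.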

Additional observations from a re-analysis of the deposited data

How the results depend on the processing

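Of the 10 member probe sets, 1 passed; the count was 2 with a further quantile normalization and among probe sets above the median mean, 0 with an unmoderated test or the replicate block, and 0 to 1 without 1 array (1 without ROW RNAi replicate 2 only). The log2 fold change of numb was −0.70 with an unmoderated test (adjusted p = 0.086) and with the replicate block (0.13), and −0.76 to −0.64 without 1 array. Under the replicate block limma called 0 of 18769 probe sets (2924 at an unadjusted p under 0.05), and row stood at −1.58 (adjusted p = 0.056). Among other pathway genes the count of 0 became 1 above the median mean, with trend and robust variance, with array weights and with the mean of each gene's probe sets, and 0 to 3 without 1 array. The share of tested probe sets called was 1.16% as reported and 6.13% above the median mean. It was 2.97% with trend and robust variance, 1.43% with array weights and 1.13% with a further quantile normalization. An unmoderated test called 0.65%, and fits without 1 array called 0.128% to 2.75%. Signs that turned were those of H 1639839_s_at with median centring (−0.0052) and without control replicate 1 (−0.0095), and of neur with the same settings (−0.0016 and −0.0072). They also were those of mam 1632457_s_at with median centring (−0.0085), leaving out control replicate 3 (−0.043) or ROW RNAi replicate 1 (−0.0020), and with the mean of its probe sets (−0.022), and of mam 1624960_at with the gradient covariate (0.0051). Over the 6 ways to leave out 1 array, H 1639839_s_at ran from −0.0095 to 0.090, H 1638568_s_at from 0.074 to 0.13, neur from −0.0072 to 0.12, mam 1632457_s_at from −0.043 to 0.14, mam 1624960_at from −0.17 to −0.021, kuz from 0.097 to 0.23, Dl 1634659_at from 0.39 to 1.49 and Dl 1634398_a_at from 0.15 to 0.61. Where fewer probe sets or arrays were used, their number differs by construction; otherwise the cause was not tested. Near background, as for Dl and BobA, the signal limits what can be seen.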
